A study of Mus musculus with 6 samples.

Results

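The p53 target genes described here are 38 mouse genes, taken as Trp53 itself and 37 genes known as its targets, its feedback regulators or its relatives. They were taken by gene symbol from a list written with earlier results of these data known, and each symbol named 1 of the 53700 gene identifiers listed. The question was how their mRNA levels differed between SL4 cells that overexpress SEMA6A and SL4 cells that do not. Of the 38 genes, 34 had a mean of at least 1 TPM (a transcript abundance scaled by length and to a fixed total per library) over the 6 libraries and were tested, among 12510 genes tested in all. At an adjusted p under 0.05, 8 of the 34 were higher (23.5%) and 11 lower (32.4%) in the SEMA6A cells, near the 19.5% and 28.2% of all genes tested. The lower genes included Gadd45a, Gadd45b, Btg1, Ccng2 and Plk2 of the growth arrest group and all 4 DNA repair genes. The higher genes included Trp53, Ddit4 and Gdf15. Also higher were Aen, Zmat3, Bbc3 and Rps27l, from the group of apoptosis, death receptors and autophagy, in which the other 7 tested genes did not pass the test.

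p53, which mouse Trp53 encodes, is a transcription factor that is stabilised by DNA damage and other stress and then turns on genes that stop the cell cycle, repair DNA, adjust metabolism or start apoptosis. MDM2 marks p53 for degradation and MDM4 blocks its activity, and the Mdm2 gene is itself a p53 target, which closes a feedback loop. In colorectal cancer (CRC) the p53 gene is often mutated. Most of these genes also answer to other transcription factors, and p53 protein, its activity and the Trp53 genotype of SL4 were not measured in the values used here.

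The SL4 line, of mouse CRC origin, carries luciferase. The SEMA6A cells (3 libraries, pLV-SEMA6A in the study) were SL4 cells stably overexpressing SEMA6A, a transmembrane semaphorin, after lentiviral transfer, and the control cells (3 libraries) were SL4 cells without SEMA6A overexpression. The study names the control both SL4 and pLV-Control, and whether these libraries came from cells with an empty vector is not clear from the sources used here. No other treatment, dose or time is given for the libraries. The promoter of the lentiviral vector is not given in the sources used here. No second, independently made line is described, so an effect of SEMA6A and a difference between the lines cannot be told apart, and nothing says that the 3 libraries of a group came from separate cultures. The p-values therefore measure the spread between these libraries, which may be technical.

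Sema6a was listed at 0 TPM in all 3 control libraries and at 98.68, 118.42 and 112.22 TPM with SEMA6A overexpression. Genes above 0 numbered 19340 to 19463 per control library and 18798 to 18887 per SEMA6A library. The listed TPM summed to 984475 to 986444 in control and 977400 to 977972 in SEMA6A libraries. The listed sums thus differed between the groups, and the cause was not tested. Read numbers cannot be recovered from TPM, and the depth of each library is unknown. The mitochondrial gene mt-Co3 was at 0.33 TPM in SEMA6A replicate 2 and at 140.6 to 450.09 TPM elsewhere. The cause was not tested, and a value listed at or near 0 was not taken as proof of absence. None of 8 colon epithelial markers reached a mean of 1 TPM, with Epcam and Cdx2 listed at 0 in every library (summed 0.13 to 0.49 TPM in control and 0.25 to 0.54 TPM in SEMA6A libraries). Of 6 fibroblast markers 4 did, namely Col1a1, Pdgfra, Pdgfrb and Dcn. The list of 6 summed to 15.78 to 16.59 TPM in control and 13.49 to 14.91 TPM in SEMA6A libraries. Its members differed in direction. Mean levels in control and SEMA6A libraries were 10.5 and 6.66 TPM for Pdgfrb, and 1.76 and 0.78 TPM for Pdgfra. They were 1.27 and 3.60 TPM for Col1a1, 0.42 and 0.87 TPM for Col1a2, and 2.21 and 2.05 TPM for Dcn. Lum was at 0.017 and 0.047 TPM. The labelled colorectal origin was thus not visible in epithelial markers. T cell markers summed to at most 0.1 TPM with 3 of 4 at 0, the 3 endothelial markers to at most 0.15 TPM, and the 4 macrophage markers to 0.87 to 2.53 TPM, mostly Cd68. In bulk RNA, fewer cells of a type and less RNA per cell cannot be told apart.

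A p53 binding site is a pair of copies of a 10-base consensus, here called the p53 decamer, which is its own reverse complement. It was searched on both strands, overlapping matches included, in the RefSeq promoters of GRCm38.p6, each from 250 bases before to 50 bases after a gene's start. Promoters were found by symbol for 31 of the 38 genes. Those not found were Zmat3, Rrm2b, Pmaip1, Ddb2, Xpc, Perp and Trp53inp1. At least 1 decamer was present in 12 of 41 promoters of these genes (29.3%) and in 2745 of all 32851 promoters (8.36%). Only exact matches to the consensus were counted. A close pair of exact decamers was present in 0 of the 41 and in 24 of all promoters. A pair in which either copy differed from the consensus was not counted, so these counts do not give the share with a full site. By gene the shares were 11 of 31 (35.5%) and 2582 of 27025 (9.55%). The 8 windows of 30 bases below, read along the gene's own strand with the decamer in capitals, are shown because they belong to genes that rose, genes that fell, and Mdm2 and Ccng1, which did not pass the test.
Gadd45a, lower (chr6:67037428-67037457, minus strand): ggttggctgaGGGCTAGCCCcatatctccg
Polk, lower (chr13:96519399-96519428, minus strand): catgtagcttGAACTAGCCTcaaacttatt
Trp53, higher (chr11:69580274-69580303, plus strand): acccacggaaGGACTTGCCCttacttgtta
Aen, higher (chr7:78895927-78895956, plus strand): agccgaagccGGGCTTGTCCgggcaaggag
Rps27l, higher (chr9:66946193-66946222, plus strand): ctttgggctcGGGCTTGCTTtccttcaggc
Rps27l, higher (chr9:66946296-66946325, plus strand): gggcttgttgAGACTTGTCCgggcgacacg
Mdm2, not past the test (chr10:117710925-117710954, minus strand): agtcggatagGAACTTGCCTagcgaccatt
Ccng1, not past the test (chr11:40755452-40755481, minus strand): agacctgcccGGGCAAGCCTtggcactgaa

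The decamer was present in 3 of the 7 matched genes that rose (Aen, Rps27l and Trp53), in 2 of the 8 that fell (Gadd45a and Polk), and in 6 of the 14 that did not pass the test (Ccng1, Ei24, Mdm2, Ppm1d, Rchy1 and Sesn1). It was in neither of the 2 matched genes left untested for low values. A match is a run of letters and not a measured binding site, and many p53 sites lie outside this window, for example in introns.

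The plot of levels by library gives all 34 tested genes. TPM is scaled by transcript length, so levels can be compared between genes. Gadd45a had the highest mean in the control libraries (696 TPM) and Rps27l in the SEMA6A libraries (454 TPM), and Trp53inp1 had the lowest tested mean in both groups (2.61 and 1.66 TPM).

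**Figure D1:**
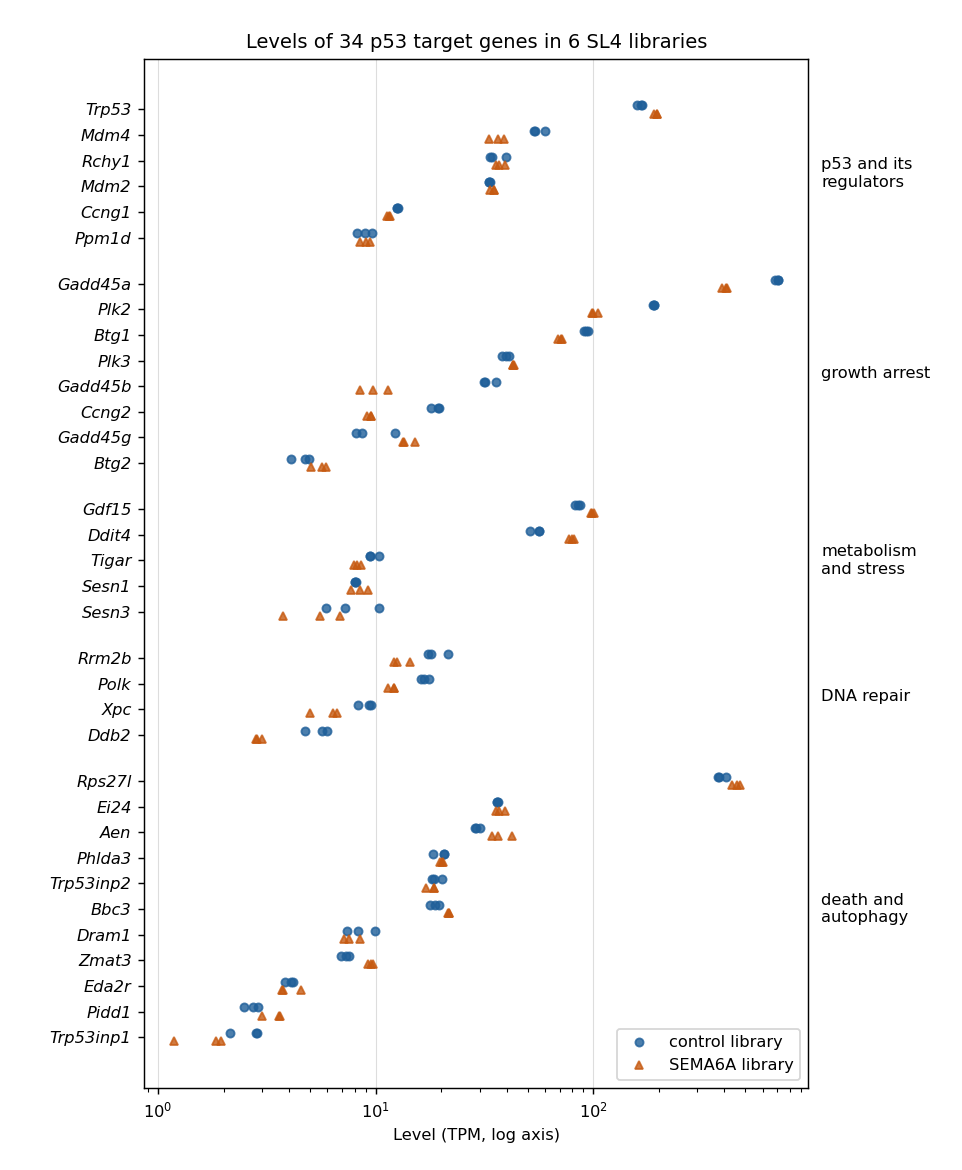
Level of each tested p53 target gene in each of the 6 libraries, in TPM on a log axis, with genes grouped by role. Points are single libraries, and Gadd45b shows the widest gap between the groups, with 31.62 to 35.54 TPM in control and 8.45 to 11.37 TPM in SEMA6A libraries.

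Changes are given as differences of mean log2(TPM + 1), SEMA6A minus control, which understates the change of low genes, with a standard error (SE) and a Benjamini-Hochberg adjusted p from limma over all 12510 genes. A differentially expressed gene (DEG) also had an absolute log2 fold change over 0.5. At an adjusted p under 0.05, the 8 higher and 11 lower of the 34 genes became 12 higher and 10 lower with libraries centred on their median, and 11 higher and 10 lower with quantile normalization, so which direction held more genes turned with scaling. By the DEG criterion, 5.12% of all genes were higher and 10.8% lower, against 2 of 34 (5.88%) and 8 of 34 (23.5%) of the p53 target genes. The 2 higher DEGs were Ddit4 and Gadd45g, and the 8 lower were Mdm4, Gadd45a, Gadd45b, Ccng2, Plk2, Rrm2b, Ddb2 and Xpc. The 3 SEMA6A values lay above all 3 control values for 23.8% of all genes and below them for 34.7%, and for 11 and 13 of the 34 genes.

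The median change of the 34 genes was 0.0013, with a range from −1.66 to 0.54, and that of all genes was −0.064. The split of all DEGs depended on scaling: it was 640 higher and 1347 lower as deposited, and 1002 higher and 961 lower with every library centred on its own median. Among the p53 target genes, centring left 2 DEGs higher and 6 lower, and moved the median change to 0.0945. Centring adds the same amount to the change of every gene, and the median of all genes moved to 0.029.

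**Figure D2:**
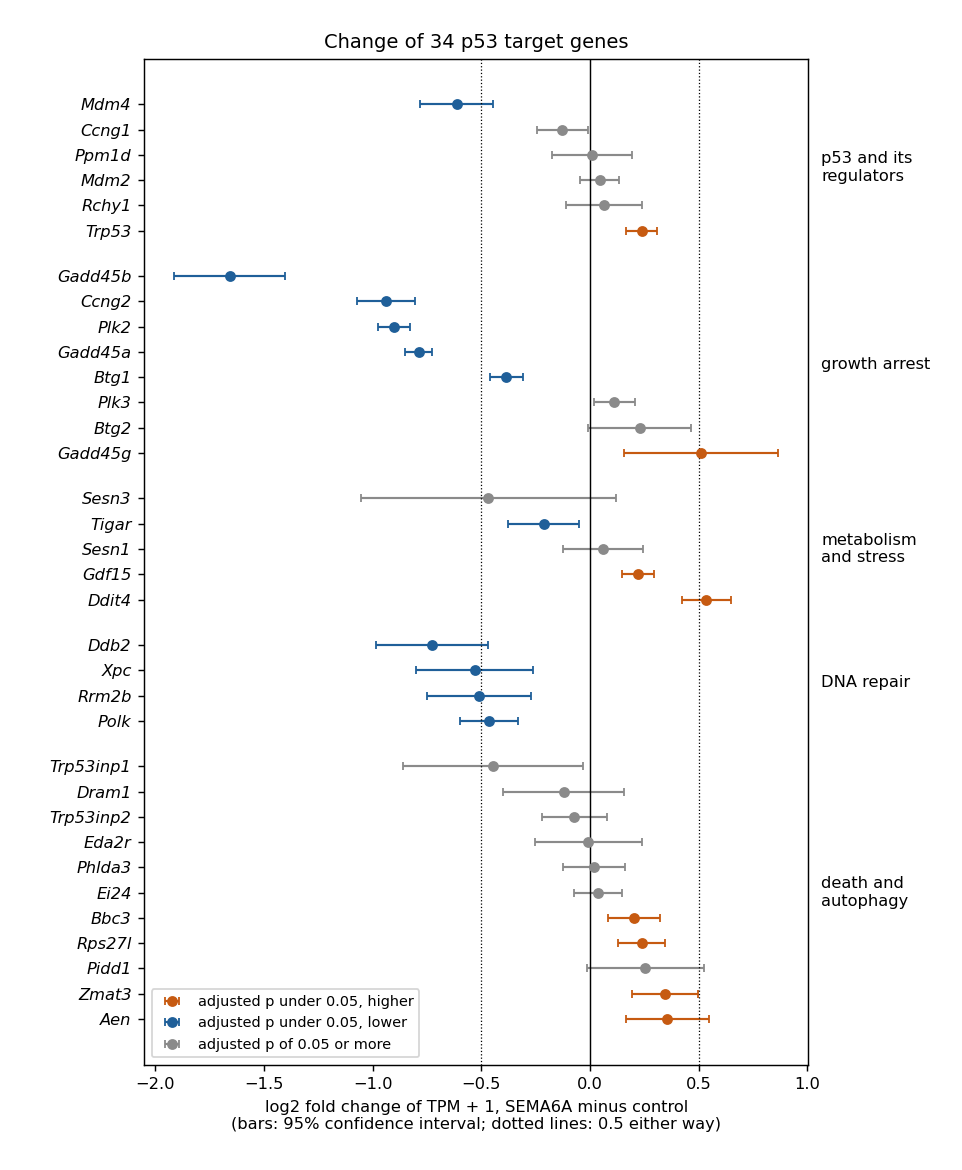
Log2 fold change, SEMA6A minus control on the log2(TPM + 1) scale, of each tested p53 target gene with its 95% confidence interval, grouped by role. The interval of Gadd45b lies farthest from 0, and the intervals of all 4 DNA repair genes lie below 0.

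Of Trp53 with its relatives and feedback regulators, 6 of 7 genes were tested, of which Trp53 rose, Mdm4 fell and 4 did not pass the test. Trp53 was at 158.97, 167.08 and 166.49 TPM in control and 189.46, 195.99 and 195.81 TPM in SEMA6A libraries. Every SEMA6A library was above every control library, and the change was 0.24 (SE 0.03, adjusted p = 0.00105). Of the 31-base stretches in Trp53 transcripts, 10.1% also occur in other genes, mainly the pseudogene Trp53-ps, and how these reads were split is uncertain.

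Mdm2, the ubiquitin ligase that degrades p53, was at 33.62, 33.17 and 33.27 TPM in control and 33.39, 34.93 and 35.04 TPM in SEMA6A libraries. The groups overlapped, and the change was 0.05 (95% confidence interval −0.04 to 0.13, adjusted p = 0.352). This call depended on scaling, with a change of 0.14 and an adjusted p of 0.023 when libraries were centred on their median.

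Mdm4, the related inhibitor without strong ligase activity of its own, was at 59.90, 53.60 and 53.68 TPM in control and 36.38, 38.71 and 33.29 TPM in SEMA6A libraries. The groups were apart and the change was −0.61 (SE 0.07, adjusted p = 0.000686). As with Trp53, a pseudogene (Mdm4-ps) holds part of its sequence, and 13.6% of its stretches occur elsewhere. Within a library, the level of Mdm4 over that of Mdm2 was 1.67 ± 0.096 in control and 1.05 ± 0.086 in SEMA6A libraries (SD, n = 3 each). An exact two-sided permutation test gave p = 0.1 for this and each of the 5 other ratios below, the smallest that 3 against 3 libraries allow.

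Ccng1, which encodes cyclin G1, a p53 target that recruits a phosphatase to MDM2, was at 12.51, 12.72 and 12.54 TPM in control and 11.49, 11.61 and 11.22 TPM in SEMA6A libraries. The groups did not overlap, but the change of −0.13 missed the threshold (adjusted p = 0.0732). It passed without limma's trend option (adjusted p = 0.0294), and the change was −0.03 with libraries centred on their median and −0.00021 with quantile normalization. Rchy1, another ubiquitin ligase for p53, differed by 0.06 (adjusted p = 0.508), and Ppm1d, the phosphatase WIP1 that switches off damage signalling, by 0.01 (adjusted p = 0.919), with overlapping groups for both. Trp73, which encodes the relative p73, was listed at 0 in all 6 libraries.

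Of the 8 growth arrest genes, all tested, 5 fell, Gadd45g rose and Btg2 and Plk3 did not pass the test, with a median change of −0.59. The shares were 12.5% higher and 62.5% lower, against 19.5% and 28.2% of all genes tested. The 3 Gadd45 genes encode small stress sensors that bind PCNA, p21, the CDK1 complex and a MAP3 kinase, and they differed in direction. Gadd45a, the member best known as a p53 target, was at 681.78, 702.44 and 704.92 TPM in control and 405.15, 411.84 and 392.00 TPM in SEMA6A libraries. It was the most abundant of the 34 genes in control libraries, the groups were far apart, and the change was −0.79 (SE 0.03, adjusted p = 4.8e-06).

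Gadd45b, which is also induced by NF-κB and TGF-β signals, was at 31.93, 31.62 and 35.54 TPM in control and 11.37, 8.45 and 9.70 TPM in SEMA6A libraries. Its change of −1.66 (SE 0.11, adjusted p = 6.07e-05) had the greatest size among the 34 genes, with a control mean 3.36 times the SEMA6A mean. Gadd45g was at 8.66, 8.08 and 12.23 TPM in control and 15.12, 13.49 and 13.39 TPM in SEMA6A libraries. Its groups did not overlap, with control replicate 3 nearest to the SEMA6A libraries, and the change was 0.51 (SE 0.15, adjusted p = 0.0283). This call was lost when any library other than control replicate 3 was left out, with an adjusted p of 0.0839 without control replicate 1, 0.0781 without control replicate 2, and 0.0836, 0.0592 and 0.0597 without SEMA6A replicates 1, 2 and 3.

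The balance within the Gadd45 family differed accordingly. The level of Gadd45a was 21.1 ± 1.21 times that of Gadd45b in control and 41.6 ± 6.63 times in SEMA6A libraries. Relative to Gadd45g, it was 74.4 ± 15.1 times in control and 28.9 ± 1.90 times in SEMA6A libraries. Gadd45b was 3.50 ± 0.53 times Gadd45g in control and 0.70 ± 0.066 times in SEMA6A libraries (SD, n = 3 each), so the order of these genes by level was reversed between the groups.

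Ccng2, which encodes cyclin G2, a cyclin that slows the cycle and is also induced by FOXO factors, was at 19.36, 19.48 and 17.94 TPM in control and 9.54, 9.50 and 9.13 TPM in SEMA6A libraries. The change was −0.94 (SE 0.06, adjusted p = 4.75e-05), with little spread in either group. Its level over that of Ccng1 was 1.5 ± 0.063 in control and 0.82 ± 0.0086 in SEMA6A libraries (SD, n = 3 each).

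Plk2, a polo-like kinase induced by p53 and by serum, was at 188.59, 190.29 and 190.18 TPM in control and 99.06, 104.93 and 99.56 TPM in SEMA6A libraries. The change was −0.90 (SE 0.03, adjusted p = 5.13e-06). The related kinase gene Plk3 was at 41.06, 39.73 and 38.15 TPM in control and 42.56, 43.37 and 42.87 TPM in SEMA6A libraries, apart but not past the threshold (0.11, adjusted p = 0.0535). Plk2 over Plk3 was 4.79 ± 0.196 in control and 2.36 ± 0.055 in SEMA6A libraries (SD, n = 3 each).

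Of the paired antiproliferative genes Btg1 and Btg2, whose proteins bind the CCR4-NOT deadenylase, Btg1 fell by 0.38 (adjusted p = 0.000171), from 90.52 to 94.21 TPM in control to 68.91 to 71.74 TPM in SEMA6A libraries. Btg2 was at 4.10 to 4.94 TPM in control and 5.07 to 5.93 TPM in SEMA6A libraries. Its change of 0.23 did not pass the test (adjusted p = 0.101). With libraries centred on their median, Btg2 (adjusted p = 0.0391) and Plk3 (adjusted p = 0.0054) were higher, so the calls of these genes depended on scaling.

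**Figure D3:**
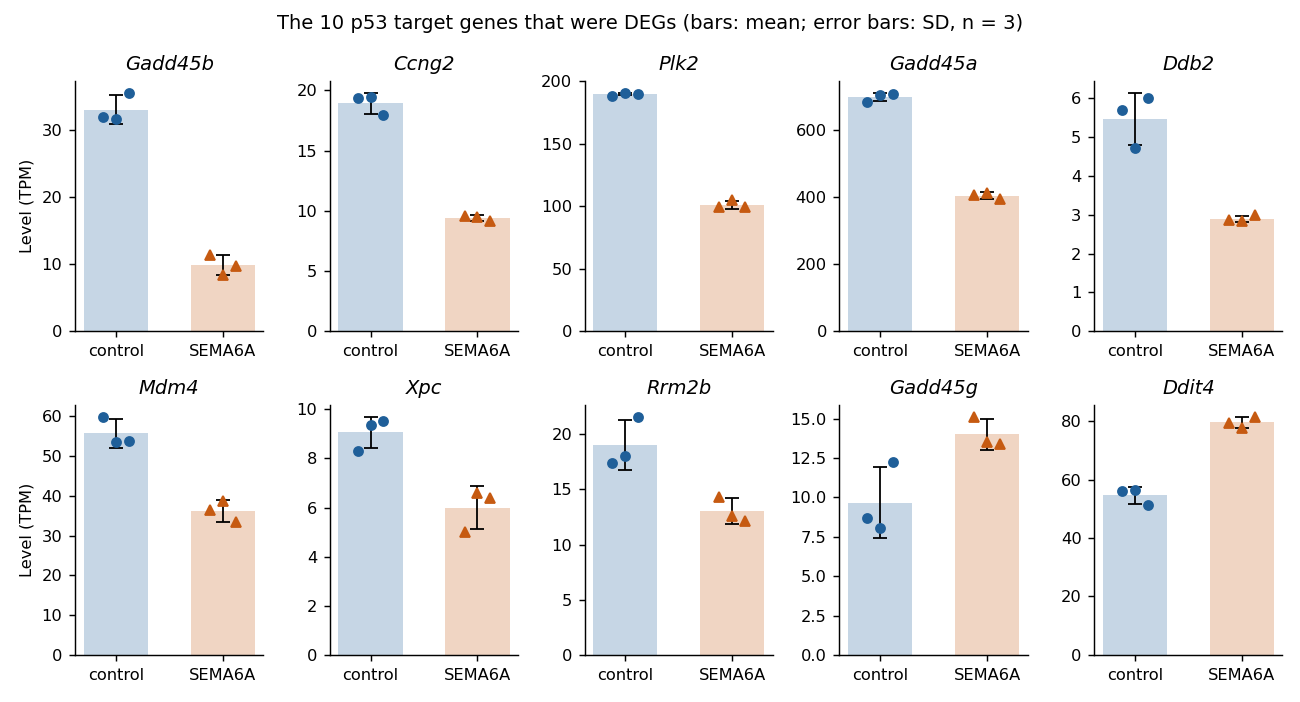
Level in TPM of the 10 DEGs among the p53 target genes, with each library as a point, the group mean as a bar and the SD as an error bar, and each axis starting at 0. Ddit4 and Gadd45g are higher in the SEMA6A libraries and the other 8 lower, with no overlap between the groups for any of the 10.

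The DNA repair genes moved in a single direction, with 4 of 4 lower, 3 of them DEGs, and a median change of −0.52. Of all genes tested, 28.2% were lower and 10.8% were lower DEGs. Ddb2, a subunit of the complex that recognises ultraviolet damage in chromatin, was at 5.69, 4.71 and 5.99 TPM in control and 2.85, 2.83 and 2.99 TPM in SEMA6A libraries. The change was −0.73 (SE 0.11, adjusted p = 0.00196), and its exons overlap those of Acp2 on the opposite strand.

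Xpc, which encodes the damage sensor of global genome nucleotide excision repair, was at 8.32, 9.34 and 9.51 TPM in control and 5, 6.61 and 6.38 TPM in SEMA6A libraries, a change of −0.53 (SE 0.11, adjusted p = 0.00875). Rrm2b, the p53-inducible small subunit of ribonucleotide reductase that supplies deoxynucleotides, was at 17.39, 17.98 and 21.59 TPM in control and 14.34, 12.56 and 12.16 TPM in SEMA6A libraries, a change of −0.51 (SE 0.10, adjusted p = 0.00638). Both lay close to the fold limit of a DEG and fell below it in part of the fits, although each remained lower. With libraries centred on their median the change was −0.42 for Rrm2b and −0.44 for Xpc. With quantile normalization it was −0.40 and −0.37, so neither was a DEG under these scalings. Without control replicate 3 the change of Rrm2b was −0.42, without SEMA6A replicate 2 it was −0.49 and without SEMA6A replicate 3 it was −0.46, while that of Xpc was −0.42 without SEMA6A replicate 1 and −0.496 without control replicate 3. Of the 31-base stretches in Rrm2b transcripts, 7.19% also occur in other genes, mainly Gm8616.

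Polk, which encodes the translesion polymerase kappa, was at 16.23, 16.61 and 17.51 TPM in control and 12.17, 11.38 and 12.12 TPM in SEMA6A libraries. The groups were apart, and the change of −0.46 (SE 0.06, adjusted p = 0.000823) passed the test but not the fold limit.

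Of the 5 genes of metabolism and stress, Ddit4 and Gdf15 rose, Tigar was lower and Sesn1 and Sesn3 did not pass the test. Ddit4 encodes REDD1, an inhibitor of mTORC1 that is induced by hypoxia, glucocorticoids and energy stress as well as by p53. It was at 56.24, 56.33 and 51.36 TPM in control and 79.56, 77.70 and 81.58 TPM in SEMA6A libraries, a change of 0.54 (SE 0.05, adjusted p = 0.000206), the greatest rise among the 34 genes. Without control replicate 3 the change was 0.49, just under the fold limit.

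Gdf15, a secreted stress cytokine of the TGF-β superfamily, was at 82.45, 84.85 and 86.50 TPM in control and 100.27, 98.10 and 98.07 TPM in SEMA6A libraries. It rose by 0.22 (SE 0.03, adjusted p = 0.00139) with no overlap between the groups.

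Tigar, a fructose bisphosphatase that lowers glycolytic flux, was at 9.42, 10.38 and 9.42 TPM in control and 8.25, 7.93 and 8.60 TPM in SEMA6A libraries. Its change of −0.21 (adjusted p = 0.0399) was no longer called when any single library was left out, with adjusted p from 0.057 to 0.119, nor with libraries centred on their median (adjusted p = 0.203). Sesn3, a sestrin that restrains mTORC1 and is also a FOXO target, was at 5.92, 10.40 and 7.25 TPM in control and 3.77, 6.89 and 5.55 TPM in SEMA6A libraries. Its spread within a group was wide and the groups overlapped, with a change of −0.47 (95% confidence interval −1.05 to 0.12, adjusted p = 0.161). Sesn1, the sestrin most closely tied to p53, differed by 0.06 (adjusted p = 0.548).

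Of the 14 genes of apoptosis, death receptors and autophagy, 11 were tested. Of these, 4 rose (36.4%, against 19.5% of all genes tested) and 7 did not pass the test. None was lower or a DEG by limma with adjustment, and at an unadjusted p under 0.05 the count was 4 higher and 1 lower (Trp53inp1). Aen, which encodes a p53-induced nuclease of apoptosis, had the largest rise of the group. It was at 28.84, 30.03 and 28.48 TPM in control and 36.64, 42.29 and 34.17 TPM in SEMA6A libraries, a change of 0.36 (SE 0.08, adjusted p = 0.0104).

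Zmat3, which encodes an RNA-binding splicing regulator, was at 7.52, 6.91 and 7.27 TPM in control and 9.21, 9.67 and 9.48 TPM in SEMA6A libraries, a change of 0.34 (SE 0.06, adjusted p = 0.00475). Bbc3, which encodes the BH3-only protein PUMA, rose less, with 19.51, 18.71 and 17.70 TPM in control and 21.70, 21.43 and 21.61 TPM in SEMA6A libraries (0.20, adjusted p = 0.0157). Rps27l, a ribosomal protein paralog induced by p53, was at 376.44, 407.85 and 372.16 TPM in control and 434.72, 458.38 and 470.37 TPM in SEMA6A libraries. Its change was 0.24 (SE 0.05, adjusted p = 0.0057), and 16.1% of its 31-base stretches occur in other genes, mainly Gm35106.

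Trp53inp1, which acts in p53 phosphorylation and autophagy, had the largest change of the group by size. It was at 2.14, 2.86 and 2.83 TPM in control and 1.95, 1.85 and 1.19 TPM in SEMA6A libraries, apart but not past the threshold (−0.44, adjusted p = 0.0742). Pidd1, the scaffold of the caspase-2 complex, was at 2.48 to 2.87 TPM in control and 3.02 to 3.64 TPM in SEMA6A libraries (0.26, adjusted p = 0.104, or 0.0417 with libraries centred on their median).

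The death receptor gene Eda2r, the AKT inhibitor gene Phlda3, the endoplasmic reticulum gene Ei24, and the autophagy genes Dram1 and Trp53inp2 had overlapping groups and changes between −0.12 and 0.04. The remaining 3 were left untested for low values. The BH3-only gene Pmaip1 (NOXA) was listed at 0.03 TPM in control replicate 2 and at 0 elsewhere, and the desmosomal gene Perp at 0.03 TPM in SEMA6A replicate 1 and at 0 elsewhere. The death receptor gene Fas was at 0.73, 1.29 and 0.91 TPM in control and 0.69, 1.28 and 0.71 TPM in SEMA6A libraries, with overlapping groups.

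Exons of 8 of the 38 genes overlap a gene on the opposite strand, and the strandedness of the libraries is not given in the sources used here. Among those that passed the test these were Gadd45a (E230016M11Rik), Ddb2 (Acp2), Rrm2b (Gm49085) and Tigar (Platr31), and reads of each pair could not be told apart if strand was not used.

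Other genes of the pathway were described from 3 further lists. Of 42 other known p53 targets, 41 were found by symbol, all but Fam212b. Of these 41, 36 were tested, with 11 higher (1 DEG), 12 lower (6 DEGs) and a median change of −0.08. All genes tested gave 19.5% higher and 28.2% lower, with 5.12% and 10.8% as DEGs, and the DEGs of the list were 4 higher and 4 lower with either centring or quantile normalization. The most classical of these, Cdkn1a, which encodes the CDK inhibitor p21, was at 27.14, 28.15 and 28.05 TPM in control and 45.89, 45.04 and 47.06 TPM in SEMA6A libraries, a change of 0.71 (SE 0.04, adjusted p = 3.1e-05). It thus differed in direction from Gadd45a, Gadd45b, Ccng2, Plk2 and Btg1. Bax, which encodes the pore-forming apoptosis effector, was at 131.72, 133.39 and 125.47 TPM in control and 152.92, 159.83 and 155.99 TPM in SEMA6A libraries, a change of 0.26 (adjusted p = 0.00109), with 11.1% of its stretches shared. The largest fall of the list was that of Tnfaip8, a regulator of cell death, at 12.85, 13.64 and 12.70 TPM in control and 5.39, 5.13 and 5.52 TPM in SEMA6A libraries (−1.15, adjusted p = 3.8e-05).

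**Figure D4:**
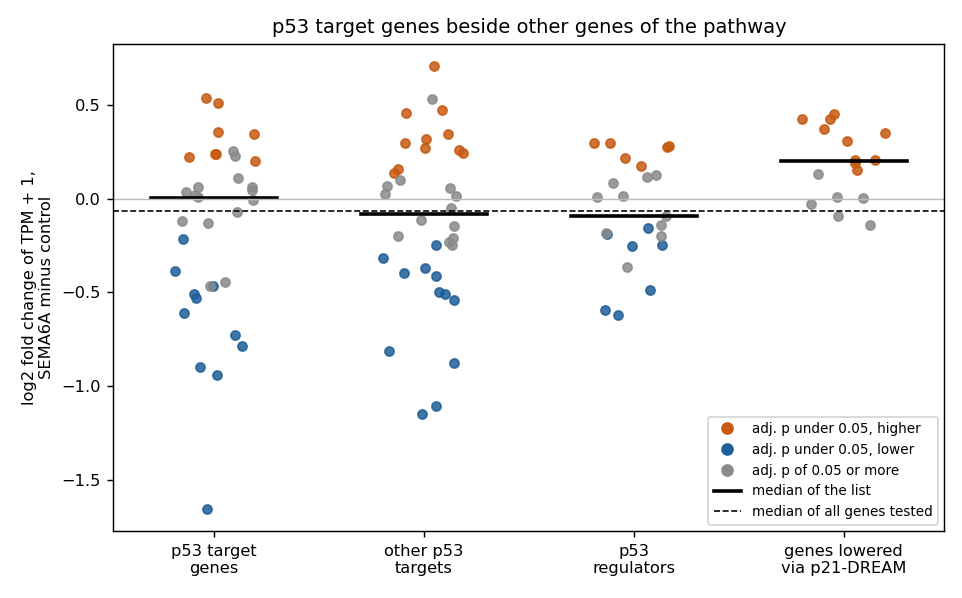
Log2 fold change, SEMA6A minus control on the log2(TPM + 1) scale, of each tested gene of the 38 p53 target genes and of the 3 other p53 pathway lists, with the median of each list as a line and the median of all genes tested (−0.064) as a dashed line. The genes repressed through p53, p21 and DREAM have a median of 0.20, and the medians of the other lists lie between −0.09 and 0.0013.

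Of 25 regulators that act on p53, such as kinases, acetyltransferases and ubiquitin ligases, 23 were tested, with 6 higher (0 DEGs), 7 lower (2 DEGs) and a median change of −0.09. The DEGs were Pml and Atm. Pml, the organiser of PML nuclear bodies, was at 28.84, 29.57 and 30.74 TPM in control and 20.53, 19.92 and 16.64 TPM in SEMA6A libraries (−0.62, adjusted p = 0.00124). Atm, the damage kinase gene, named after its values were seen, was at 11.77, 14.01 and 19.20 TPM in control and 10.13, 9.58 and 8.54 TPM in SEMA6A libraries (−0.60, adjusted p = 0.0266). It was no longer called without control replicate 2 (adjusted p = 0.0565), SEMA6A replicate 2 (0.061) or SEMA6A replicate 3 (0.0809), and its change was −0.41 without control replicate 3. The adjusted p was 0.0661 with no filter on low values, 0.0638 with quantile normalization and 0.0565 with the replicate block. The p53-p21-DREAM list holds 16 cell cycle genes that p53 represses indirectly through p21. All 16 were tested, 10 were higher and none lower (none lower at an unadjusted p under 0.05 either, and 11 higher), with no DEG and a median change of 0.20. The shares were 62.5% higher and 0% lower for this list, and 26.1% and 30.4% for the regulators. Of all genes tested, 19.5% were higher and 28.2% lower.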

How the data were processed

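mRNA was sequenced from 3 control and 3 SEMA6A libraries of SL4 cells. The authors deposited TPM per library with 2 decimals, and the submitters' processing notes name HISAT, Bowtie2, RSEM and mm39, with no versions or roles. Group means in the same table were not used.

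Genes averaging at least 1 TPM were compared by limma 3.58.1 (R 4.3.3, trend option, no covariate) on log2(TPM + 1), adjusted by the Benjamini-Hochberg method. DEG limits (adjusted p below 0.05, log2 fold change beyond 0.5 either way) follow the study's enrichment methods, which name limma. They are not stated for the RNA-seq. TPM is not a count, so no count test was run. Only promoter windows have positions, on GRCm38.p6, since the annotation at hand is not mm39. Shared 31-base stretches and exon overlaps were counted in GENCODE M21 (GRCm38).

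The genes and lists were chosen with earlier results of these data known. Values per library are given for Trp53, Mdm2, member DEGs, the largest change of each role, Cdkn1a, Bax and, in each further list, the largest rise and fall among DEGs averaging at least 5 TPM. Other genes with values were chosen after these were seen. On simulated data, 82% of 200 genes moved by 1 (log2) among 12510 were called DEGs, with 1.8% false calls. With the replicate block these were 66% and 4.35%. The simulation used independent normal noise and few changed genes, so its rates need not hold for these data.

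Alternatives were a pseudocount of 0.1, no filter, a mean of at least 5 TPM, centring, quantile normalization, no trend, a replicate block, other fold limits and leaving out each library.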

Additional observations from a re-analysis of the deposited data

How the results depend on the processing

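The 8 lower DEGs ranged from 6 to 8 when each library was left out in turn, and the 2 higher DEGs were 1 in every such fit, either Ddit4 or Gadd45g, and 1 with no filter on low values. With a minimum fold change of 1 (log2), 0 higher and 1 lower (Gadd45b) remained, and with no minimum 8 higher and 11 lower. The median change of the p53 target genes moved to 0.0945 with centring and 0.0933 with quantile normalization, and ranged from −0.0264 to 0.0199 when libraries were left out, lowest without SEMA6A replicate 3. That of all genes moved to 0.029 with centring and 0.016 with quantile normalization. For the other p53 targets, higher DEGs were 4 with centring, 4 with quantile normalization, 1 to 3 without single libraries (3 without control replicate 3), 0 at a minimum of 1 and 11 with no minimum, and lower DEGs were 2 and 12 at those limits. For the regulators, lower DEGs were 1 with no filter, 1 with quantile normalization, 1 to 3 without single libraries (1 without control replicate 2 or SEMA6A replicate 2), 0 at a minimum of 1 and 7 with no minimum, where 6 were higher. For the p53-p21-DREAM list, higher DEGs were 3 with centring and 10 with no minimum.

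Over all genes tested, same-numbered libraries did not deviate together (mean correlation −0.059, from −0.079 to −0.023, against 0.029 for other numbers). Deviations were taken from each group's own mean, which ties the value for other numbers to that for same numbers. The 0.029 is therefore not a separate comparison. The labels give only a number, and these correlations cannot exclude a shared culture or batch. With the replicate block there were 1924 DEGs against 1987, the p53 target DEGs stayed at 2 higher and 8 lower, regulator DEGs lower were 1 (Atm lost), Tigar had an adjusted p of 0.0998 and Sesn3 of 0.0174.

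Signs of genes that did not pass the test changed for Eda2r (0.085 with centring, 0.178 with quantile normalization, −0.084 to 0.033 without single libraries), Dram1 (0.032 with quantile normalization), Trp53inp2 (0.022 with centring, 0.020 with quantile normalization), Ppm1d (−0.038 to 0.059 without single libraries) and Phlda3 (−0.036 to 0.046). The cause of these shifts was not tested. The depth behind TPM is unknown, so no detection limit could be given for the genes listed near 0.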
